A study of Rattus norvegicus with 15 samples.

Results

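The antioxidant and NRF2 target genes of the rat retina were followed across 5 groups of retinas, 4 of which had been exposed to the oxidant sodium iodate (NaIO3). The set held 36 genes, named by symbol: the transcription factor Nfe2l2 and its inhibitor Keap1, the enzymes that make and recycle glutathione, the thioredoxin system, the peroxiredoxins, the glutathione peroxidases and catalase, the superoxide dismutases, several glutathione transferases, and enzymes that handle heme, quinones, aldehydes, NADPH and oxidized protein. A member also had to reach the expression level set for testing, an average across libraries of the log2 of 10 in rlog units. All 36 named genes reached it, out of 15424 tested and 20375 listed genes. The rlog value is a log2 expression level, corrected for library size and drawn toward the gene's own mean, so differences between rlog values are smaller than those between counts. No group was used to choose the genes, but results of these data were known when they were chosen.

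RNA was sequenced from retinas of wild-type Sprague-Dawley rats at postnatal week 12, on day 31 after transplantation, with 3 libraries in each of the NT, sham, MSC, MSCEPO and DPSC groups. NT retinas were healthy and untreated. The sham, MSC, MSCEPO and DPSC rats received systemic NaIO3 at 40 mg/kg, and the sham eyes were injected with vehicle. In every comparison with NT, NaIO3 and the injection into the eye therefore cannot be told apart. The MSC eyes received an intravitreal injection of human Wharton's jelly mesenchymal stem cells before NaIO3, the MSCEPO eyes received such cells after lentiviral engineering to express human erythropoietin, and the DPSC eyes received cells that the labels name only as DPSC. Rats with xenografts were also given dexamethasone at 2 mg/kg and then oral cyclosporin at 10 mg/kg per day, and the labels do not state whether NT and sham rats were, so the cells and the immunosuppressants cannot be told apart. The human cells lay in the same eyes, and reads were quantified on rat transcripts alone. Nothing in the labels ties the libraries to separate animals, so p-values measure only the spread between these libraries. The depth of each library is not known, because the values hold no counts.

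NRF2, the product of Nfe2l2, is held in the cytoplasm by KEAP1 and sent to the proteasome. Oxidants and electrophiles modify cysteines of KEAP1, NRF2 then accumulates in the nucleus, and it binds antioxidant response elements near the genes of glutathione synthesis, thioredoxin reduction, heme breakdown and quinone reduction. Glutathione and thioredoxin are the main thiol donors of the cell, and peroxidases and peroxiredoxins use them to clear peroxides. The retina has a high oxygen use and membranes rich in polyunsaturated fatty acids, and NaIO3 is a toxin of the retinal pigment epithelium with later loss of photoreceptors.

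The promoter sequences below are those of the 4 members with a RefSeq promoter entry that passed the test described below in the most comparisons, with ties settled by the smallest adjusted p, so that the response of these genes can be read beside the letters upstream of them. RefSeq windows of 300 bases, from 250 before to 50 after the transcription start on the GRCr8 build, were matched by symbol for 30 of the 36 members. The other 6 were Gsr, Prdx6, Sod3, Hmox1, Aldh2 and Msra. The deposited values were made on the Rnor_6.0 build and carry no coordinates. The 250 bases upstream of the start are given 5′ to 3′ on the strand of the gene. Capitals mark a match to TGACNNNGC, the core of the antioxidant response element, or to TAATCC, the site of photoreceptor homeobox factors such as CRX, on either strand. TAATCC was searched after the values had been seen.
Nxnl1, chr16:18310645-18310894, minus strand: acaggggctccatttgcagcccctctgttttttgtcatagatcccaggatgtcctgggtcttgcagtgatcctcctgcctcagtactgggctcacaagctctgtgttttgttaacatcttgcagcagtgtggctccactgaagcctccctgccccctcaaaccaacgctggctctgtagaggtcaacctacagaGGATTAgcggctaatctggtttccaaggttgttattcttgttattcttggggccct
Mgst1, chr4:172760680-172760929, plus strand: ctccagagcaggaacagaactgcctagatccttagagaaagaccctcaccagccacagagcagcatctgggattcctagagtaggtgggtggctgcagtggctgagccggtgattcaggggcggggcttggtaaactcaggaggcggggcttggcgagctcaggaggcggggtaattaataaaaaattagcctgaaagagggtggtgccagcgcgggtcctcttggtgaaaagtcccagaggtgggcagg
Nqo1, chr19:52220268-52220517, minus strand: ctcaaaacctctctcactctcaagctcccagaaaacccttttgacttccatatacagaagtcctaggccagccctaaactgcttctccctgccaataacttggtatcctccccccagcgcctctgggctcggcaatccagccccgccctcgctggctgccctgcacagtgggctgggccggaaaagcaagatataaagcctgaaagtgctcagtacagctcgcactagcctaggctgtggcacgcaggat
Txnrd1, the one of its annotated starts with a match, chr7:22755905-22756154, minus strand: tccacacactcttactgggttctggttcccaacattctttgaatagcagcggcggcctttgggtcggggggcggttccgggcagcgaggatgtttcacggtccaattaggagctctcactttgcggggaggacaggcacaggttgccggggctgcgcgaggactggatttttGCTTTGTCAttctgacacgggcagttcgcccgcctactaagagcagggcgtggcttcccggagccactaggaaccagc

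TGACNNNGC was found in the windows of 9 of the 30 members (30%), which were Gclm, Gstp1, Me1, Nfe2l2, Prdx1, Prdx4, Prdx5, Sod2 and Txnrd1. It was found for 13.1% of all 27457 genes with a RefSeq promoter, and in 12.1% of their 33469 windows. In Gstp1, Prdx1 and Me1 the matched letters were TGACTCAGC, which also hold the AP-1 site TGACTCA. The Txnrd1 match began 78 bases upstream of the start on the opposite strand, and the other annotated start of Txnrd1, whose window is not printed, held no match. TAATCC was found in Nxnl1 alone among the 30 members, 56 bases upstream on the opposite strand and again 33 bases downstream, against 7.77% of all genes and 7.17% of all windows. Of the 9 members with TGACNNNGC, Nfe2l2 and Txnrd1 passed in at least 1 comparison. Of the members whose windows lacked it, Slc7a11, Nxnl1, Gpx1, Gstm1, Mgst1 and Nqo1 passed in at least 1. A match is a description of letters, and the windows of Mgst1 and Nqo1 held neither motif.

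The test was limma on the rlog values of all 15 libraries, and a gene passed where its p-value, adjusted by the Benjamini-Hochberg method over the 15424 genes of that comparison, was under 0.05. Before the results, 2 libraries need naming. MSC replicate 1 held the highest value of 11 members and of 20.9% of all tested genes. MSCEPO replicate 3 held the highest value of 9 members and the lowest of 4, with 21.6% and 25.1% of all tested genes. NT replicate 3 held the lowest value of 15 members, against 13.8% of all genes. Values without 1 of these libraries are given beside some of the members concerned. A member with no such value may also lean on them. Retinal markers were present: Glul, a Müller glia enzyme, had a mean rlog value of 15.65 in NT. The libraries also held genes of the retinal pigment epithelium such as Rpe65, at 11.92 in NT. The mean level of that list ran from -2.09 to 0.51 by library relative to the NT mean. Of its 10 tested genes 3 fell in MSC, 1 rose and 1 fell in MSCEPO, and 0 passed in sham or DPSC. Lens genes, crystallins among them, had a mean level by library from -1.41 to 5.52 relative to the NT mean, with 0 of 10 passing in any group.

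Relative to NT, Hmox1 rose in the sham, MSC, MSCEPO and DPSC groups, and Nxnl1 fell in the 3 groups with cells. In the sham group 1 member rose (Hmox1) and 0 fell, where 0.558% of all genes rose and 0.331% fell. In the MSC group 8 members rose, 22.2% of the 36, where 11% of all genes rose, and 1 member fell, where 6.37% of all genes fell. In the MSCEPO group 4 members rose and 1 fell, where 5.83% and 5.81% of all genes did so. In the DPSC group 1 member rose and 1 fell, where 1.43% and 1.41% of all genes did so. Thus 10 of the 36 members passed in at least 1 comparison, and 26 passed in none. The share of all genes that passed in at least 1 comparison was not counted. This pooled count therefore has no background and does not show whether the members passed more often than other genes. The 4 comparisons share the NT libraries. A whole retina was measured, so fewer cells of a type and less RNA per cell cannot be told apart.

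With a 2-fold difference also required, 0 members passed in the sham group (background 0.292%), 3 in the MSC group (Hmox1, Nxnl1 and Slc7a11, background 6.7%), 3 in the MSCEPO group (Hmox1, Mgst1 and Nxnl1, background 3.57%) and 1 in the DPSC group (Hmox1, background 0.784%). Members whose 3 libraries lay entirely above or below the 3 NT libraries numbered 13 in the sham group, 16 in the MSC group, 11 in the MSCEPO group and 14 in the DPSC group. Those are 36.1%, 44.4%, 30.6% and 38.9% of the members, and the same held for 31.9%, 44.1%, 31.4% and 31.7% of all genes, so the members' shares were near the background. At an unadjusted p under 0.05 there were 7, 14, 12 and 10 members, where 12.4%, 30.7%, 27% and 16.8% of all genes were below that level.

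In the sham group 26 of 36 members had a mean above NT, as did 51.2% of all genes, with a median difference of 0.12 on the log2 scale where the median of all genes was 0.00. The corresponding medians were 0.15 in the MSC group (28 members above NT), 0.20 in the MSCEPO group (29) and 0.17 in the DPSC group (26). Of all genes 50.3%, 49.5% and 50.6% lay above NT in those groups. By library, the members' median relative to the NT mean was -0.14 in NT replicate 3 and 0.07 in NT replicates 1 and 2. Sham replicate 1 and MSC replicate 3, both at 0.04, lay below NT replicates 1 and 2. The other libraries outside NT ran from 0.12 to 0.36. After each library was centred on its median gene, 21 members lay above NT in the MSC group in place of 28, and the members' median there was 0.09.

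**Figure D1:**
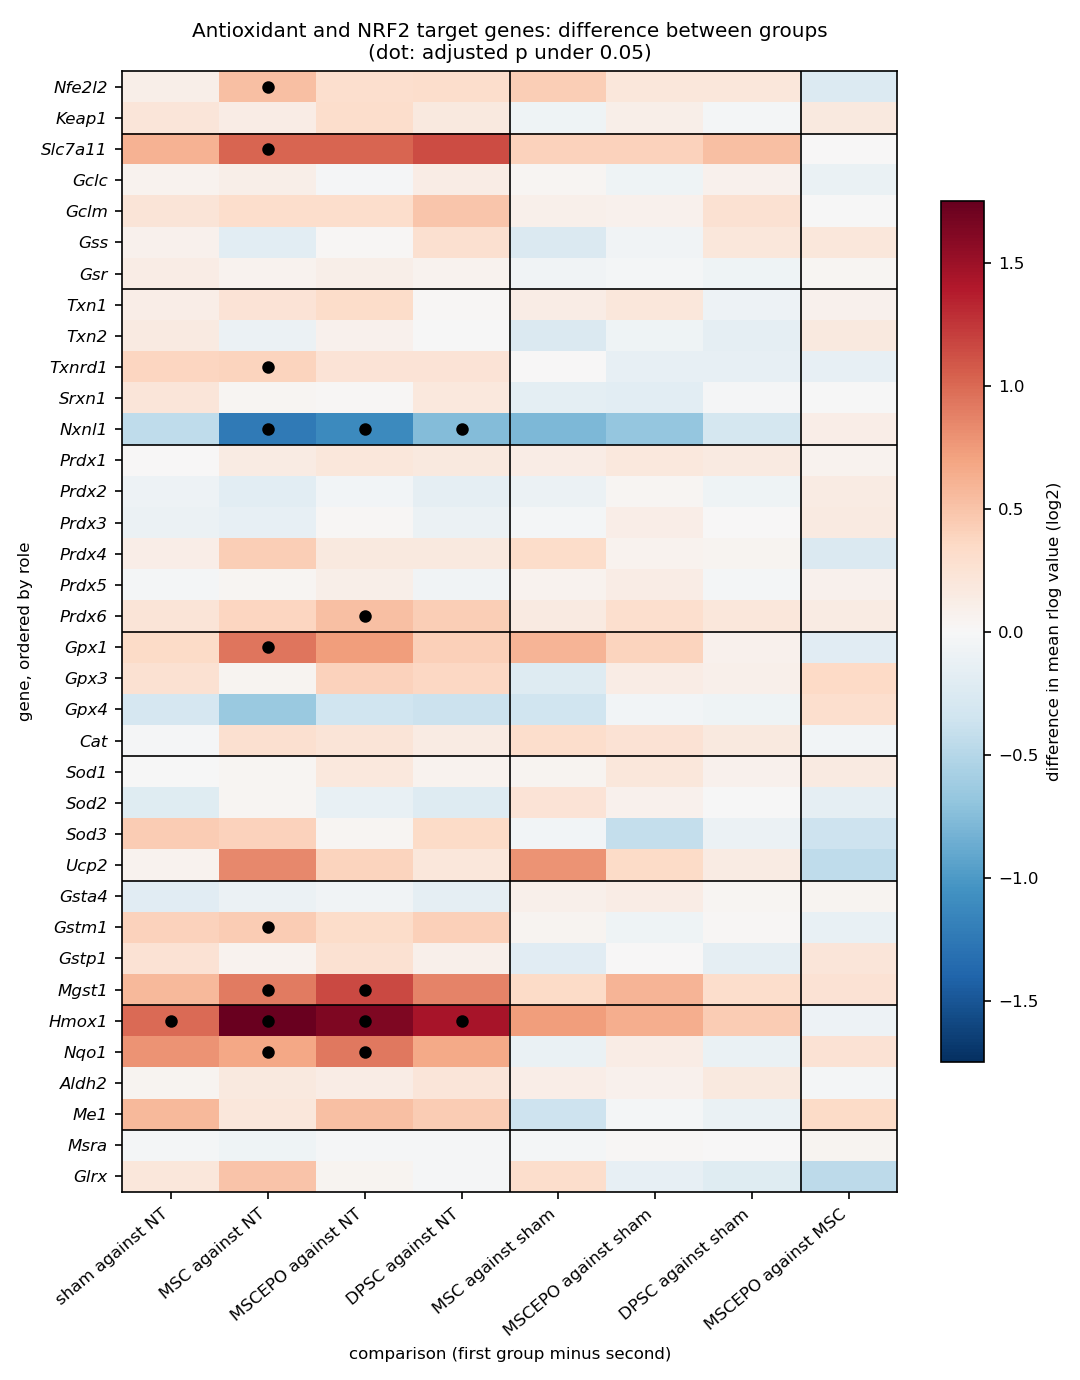
Difference in mean rlog value (log2, first group minus second) for the 36 members, ordered by role, in 8 comparisons; black dots mark an adjusted p under 0.05. Hmox1 is marked in all 4 comparisons with NT and Nxnl1 in 3, while the comparisons with sham and of MSCEPO with MSC hold 0 marks.

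Hmox1 (ENSRNOG00000014117) encodes heme oxygenase 1, the inducible enzyme that breaks heme into biliverdin, iron and carbon monoxide. It read 6.59, 6.70 and 6.42 in the NT libraries and 7.60, 7.67 and 7.43 in the sham libraries. It read 8.82, 8.04 and 8.04 in MSC, 8.38, 8.02 and 8.23 in MSCEPO, and 8.15, 8.14 and 7.74 in DPSC. The groups formed 3 steps without overlap: NT lowest, sham in the middle, and all 9 libraries with cells on top. Against NT the rise was 1.00 ± 0.20 (SE) on the log2 scale in sham (2.00-fold, limma adjusted p = 0.0411), 1.73 in MSC (3.3-fold, adjusted p = 0.000437), 1.64 in MSCEPO (3.11-fold, adjusted p = 0.000385) and 1.44 in DPSC (2.72-fold, adjusted p = 0.0035), each with the same SE. The sham call did not hold when any of its 6 libraries was left out, with adjusted p up to 0.20, while the calls in the 3 groups with cells held with each library left out in turn.

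Nqo1 (ENSRNOG00000012772) encodes a quinone reductase that spares cells from redox cycling. Its NT libraries read 7.19, 7.33 and 6.97 and its sham libraries 7.68, 8.04 and 8.13. The groups with cells read 7.73, 7.69 and 8.08 (MSC), 8.16, 7.73 and 8.36 (MSCEPO), and 7.81, 8.14 and 7.54 (DPSC). All 12 NaIO3 libraries were above all 3 NT libraries, and sham overlapped each group with cells. Nqo1 rose by 0.67 ± 0.20 (SE) in MSC (adjusted p = 0.0377) and by 0.92 in MSCEPO (adjusted p = 0.0119, and 0.06 without NT replicate 3). Its differences of 0.79 in sham (adjusted p = 0.102) and 0.67 in DPSC (adjusted p = 0.101) did not pass. The MSC call did not hold when any of its libraries was left out, nor after quantile normalization (adjusted p = 0.152).

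Me1 (ENSRNOG00000009715), the cytosolic malic enzyme that supplies NADPH, read 9.57, 9.46 and 9.58 in NT and 10.09, 10.18 and 10.02 in sham. Its values in the groups with cells were 9.46, 9.69 and 10.07 in MSC, 9.93, 9.77 and 10.50 in MSCEPO, and 9.90, 9.98 and 10.04 in DPSC. Sham, MSCEPO and DPSC lay above NT without overlap and MSC did not, as MSC replicate 1 was the lowest of all 15 libraries. The difference from NT was 0.56 (95% interval 0.18 to 0.94, adjusted p = 0.182) in sham and 0.20 (interval -0.18 to 0.58) in MSC, which was 0.34 without MSC replicate 1. In MSCEPO it was 0.53, and 0.31 without MSCEPO replicate 3. In a fit of the sham and NT libraries alone, Me1, Nqo1 and Txnrd1 passed beside Hmox1, where 1333 of all genes passed in place of 137. Aldh2, a mitochondrial aldehyde dehydrogenase, differed from NT by 0.05 to 0.21 in the 4 groups and passed in none.

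**Figure D2:**
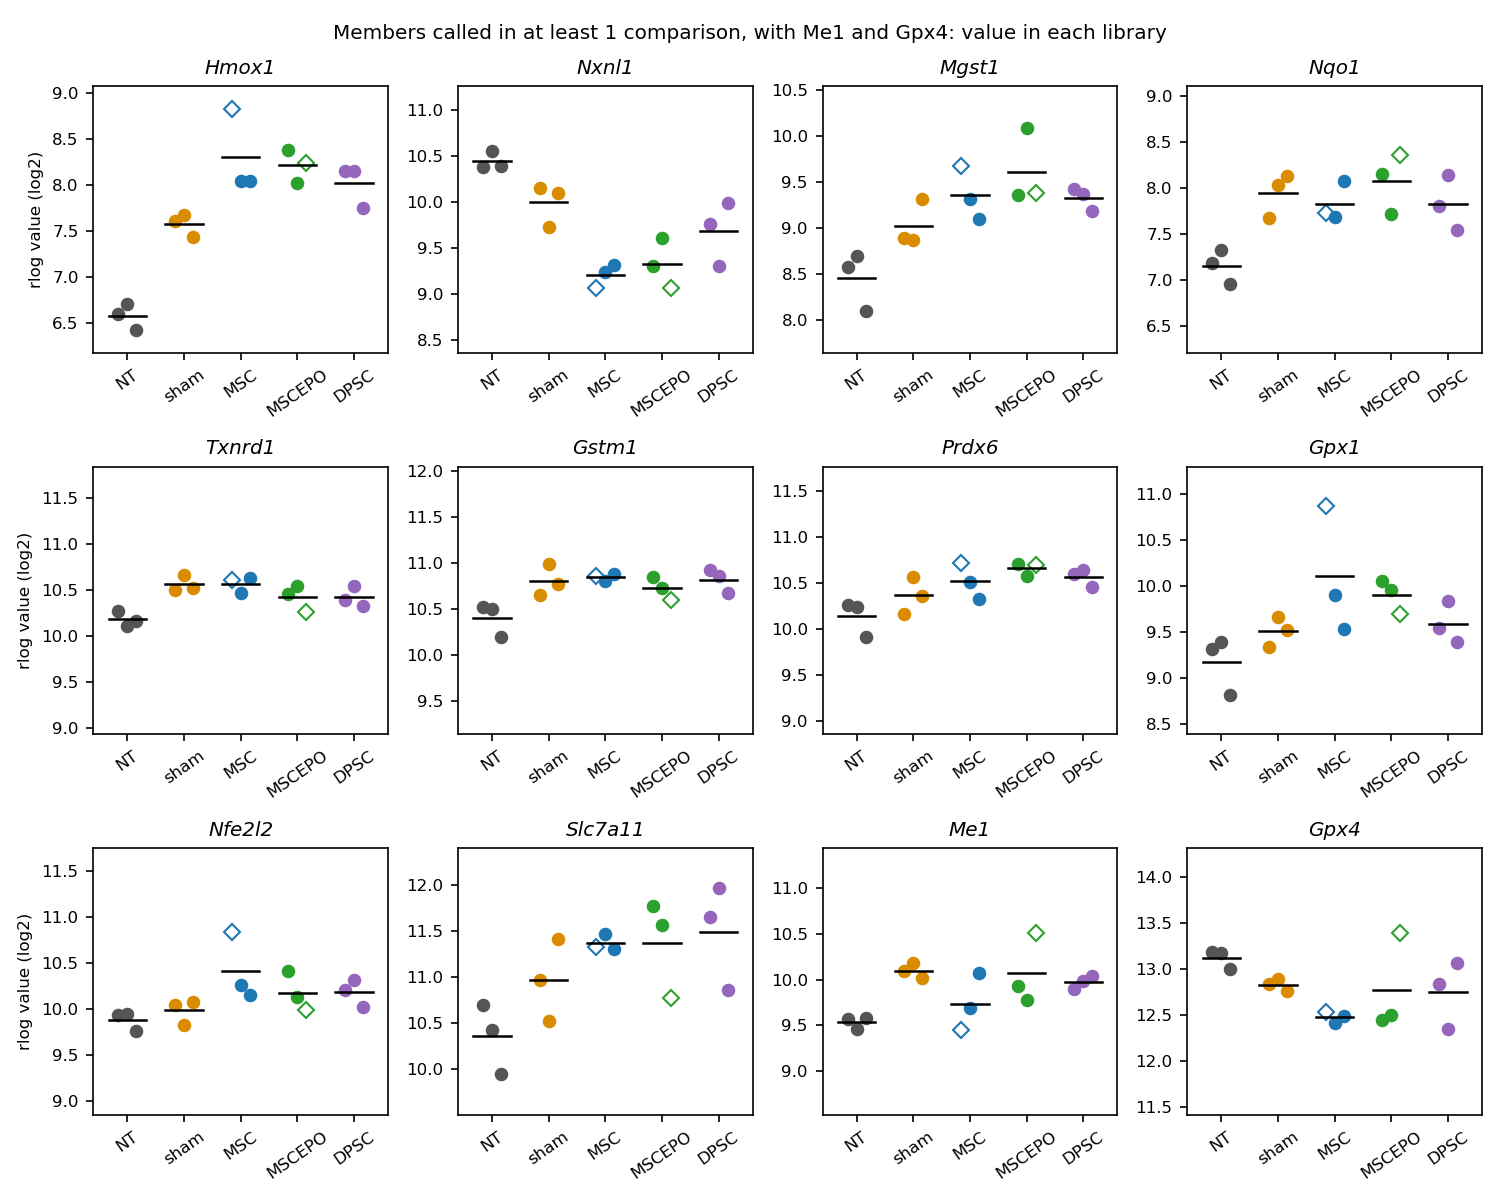
rlog value (log2) of the 10 members that passed in at least 1 comparison, with Me1 and Gpx4, in each of 3 libraries per group; bars mark group means, and open diamonds mark MSC replicate 1 and MSCEPO replicate 3. Every panel spans the same number of log2 units; Hmox1 shows 3 steps without overlap, and Nxnl1 is highest in NT.

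Nfe2l2 (ENSRNOG00000001548), the gene of NRF2 itself, read 9.94, 9.94 and 9.76 in NT, 10.04, 9.82 and 10.08 in sham, and 10.84, 10.25 and 10.15 in MSC. It read 10.41, 10.13 and 9.98 in MSCEPO and 10.21, 10.31 and 10.02 in DPSC. Sham overlapped NT, and the groups with cells lay above it. Nfe2l2 passed in MSC, where it rose by 0.53 ± 0.17 (SE, adjusted p = 0.046). Without MSC replicate 1 that difference was 0.32 (adjusted p = 0.161), and without NT replicate 3 it was 0.47 (adjusted p = 0.148). The call held only in the fit without MSC replicate 3 among the 6 that left out 1 library. Transcript level is not a measure of NRF2 activity, which is set mainly by protein stability.

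Keap1 (ENSRNOG00000020878), whose product holds NRF2 back, read 9.70, 9.65 and 9.61 in NT and 9.82, 9.93 and 9.83 in sham. It read 9.85, 9.72 and 9.79 in MSC, 9.67, 9.86 and 10.35 in MSCEPO, and 9.84, 9.73 and 9.92 in DPSC. Every sham, MSC and DPSC library was above every NT library, by small amounts. Its differences from NT, 0.13 to 0.31, did not pass, and the highest value was that of MSCEPO replicate 3, without which the MSCEPO difference was 0.11 in place of 0.31.

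Of the 5 genes of glutathione synthesis and recycling, 1 passed. Slc7a11 (ENSRNOG00000010210), the cystine importer subunit xCT that feeds glutathione synthesis, read 10.70, 10.42 and 9.94 in NT and 10.96, 10.52 and 11.41 in sham. It read 11.32, 11.47 and 11.31 in MSC, 11.77, 11.56 and 10.77 in MSCEPO, and 11.65, 11.96 and 10.86 in DPSC. Sham overlapped NT, and the 9 libraries with cells lay above all NT libraries. Slc7a11 rose by 1.01 ± 0.32 (SE) in MSC (2.02-fold, adjusted p = 0.0472). The differences of 1.01 in MSCEPO (adjusted p = 0.0601) and 1.14 in DPSC (adjusted p = 0.084) were as large and did not pass. The MSC call did not hold when any of its libraries was left out, and without NT replicate 3 the MSC difference was 0.81 (adjusted p = 0.176). Without MSC replicate 1 and MSCEPO replicate 3 the MSCEPO difference was 1.31 (adjusted p = 0.0138).

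Gclc, the catalytic subunit of the rate-limiting ligase of glutathione synthesis, barely varied. It read 10.10, 10.13 and 10.13 in NT, 10.18, 10.18 and 10.17 in sham, 10.18, 10.24 and 10.23 in MSC, 10.28, 10.01 and 10.01 in MSCEPO, and 10.39, 10.13 and 10.23 in DPSC. Its differences from NT ran from -0.02 to 0.13, and the widest of their 95% intervals reached 0.32. Gclm, the modifier subunit of that ligase, differed from NT by 0.22 in sham, 0.31 in MSC, 0.30 in MSCEPO and 0.48 in DPSC (adjusted p = 0.0851, interval 0.19 to 0.78). Gss, the second enzyme of the pathway, and Gsr, which returns oxidized glutathione to its reduced form, differed by -0.18 to 0.28 and passed in no comparison.

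The thioredoxin system moved in both directions. Txnrd1 (ENSRNOG00000009088), the cytosolic reductase that returns thioredoxin to its active form, read 10.26, 10.11 and 10.16 in NT and 10.50, 10.66 and 10.52 in sham. It read 10.60, 10.47 and 10.63 in MSC, 10.45, 10.54 and 10.26 in MSCEPO, and 10.39, 10.55 and 10.32 in DPSC. Sham, MSC and DPSC did not overlap NT, and in MSCEPO replicate 3 alone was in the NT range. Txnrd1 rose by 0.39 ± 0.10 (SE) in MSC (1.31-fold, adjusted p = 0.0153), a call lost without NT replicate 2 or NT replicate 3 with adjusted p up to 0.0641. The sham difference was nearly the same, 0.38 (adjusted p = 0.0917), and those of MSCEPO and DPSC were both 0.24 (adjusted p = 0.127 and 0.216).

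Nxnl1 (ENSRNOG00000042658) encodes the rod-derived cone viability factor, a thioredoxin-like product of photoreceptors. It read 10.38, 10.56 and 10.40 in NT, 10.16, 9.74 and 10.11 in sham, 9.07, 9.25 and 9.32 in MSC, 9.31, 9.61 and 9.07 in MSCEPO, and 9.76, 9.31 and 10.00 in DPSC. NT was highest without overlap, and MSC and MSCEPO also lay wholly below sham. Against NT, Nxnl1 fell by 1.23 on the log2 scale in MSC (2.35-fold lower, adjusted p = 0.00141), by 1.12 in MSCEPO (2.17-fold lower, adjusted p = 0.00211) and by 0.76 in DPSC (1.69-fold lower, adjusted p = 0.0439), each with an SE of 0.18. The sham difference was -0.44 (adjusted p = 0.326). The MSC and MSCEPO calls held with each library left out. The DPSC call was lost in 10 of 15 alternatives, with adjusted p up to 0.183 without DPSC replicate 2.

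The rod markers moved beside Nxnl1. Their list (11 of 12 tested) had a mean level below NT by 0.73 in sham (libraries -0.80 to -0.63), 1.32 in MSC (-1.41 to -1.20), 1.48 in MSCEPO (-1.68 to -1.24) and 1.04 in DPSC (-1.47 to -0.72). Of these markers 1, 10, 10 and 8 fell in those groups, and 0 rose. Within groups the order of the libraries differed: DPSC replicate 2 held the lowest Nxnl1 value of its group, 9.31, with the lowest rod level, -1.47, while MSC replicate 1 and MSCEPO replicate 3 held the lowest Nxnl1 values of theirs, both 9.07, with the highest rod levels, -1.20 and -1.24. The part of rod loss in the Nxnl1 values was not tested.

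Of the other thioredoxin genes, cytosolic Txn1 and mitochondrial Txn2 differed from NT by -0.10 to 0.32, and the sulfiredoxin Srxn1, which repairs overoxidized peroxiredoxins, by 0.03 to 0.21. None of these passed. Txn1 was at 10.76 in MSC replicate 1 and 10.61 in MSCEPO replicate 3, and between 9.53 and 10.02 in the other 13 libraries. Without MSC replicate 1 its MSC difference was -0.13 in place of 0.24.

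The 6 peroxiredoxins reduce peroxides with electrons from thioredoxin or glutathione, and 1 of them passed. Prdx6 (ENSRNOG00000002896), a peroxidase of oxidized phospholipids, read 10.26, 10.24 and 9.91 in NT and 10.17, 10.57 and 10.36 in sham. It read 10.72, 10.51 and 10.33 in MSC, 10.71, 10.58 and 10.70 in MSCEPO, and 10.60, 10.65 and 10.46 in DPSC. All 9 libraries with cells were above NT, and sham overlapped it. Prdx6 rose by 0.52 ± 0.13 (SE) in MSCEPO (1.44-fold, adjusted p = 0.0219), a call lost without NT replicate 3 or MSCEPO replicate 1 with adjusted p up to 0.104. Its differences of 0.38 in MSC (adjusted p = 0.0636) and 0.43 in DPSC (adjusted p = 0.104) did not pass. Prdx1 to Prdx5 had differences from NT between -0.19 and 0.43 and passed in none of the comparisons. The largest of these, 0.43 for Prdx4 in MSC, came with a value of 9.29 in MSC replicate 1 against 8.54 and 8.09 in the other two libraries, and was 0.11 without MSC replicate 1.

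Glutathione peroxidases differed by member. Gpx1 (ENSRNOG00000048812), the cytosolic peroxidase, read 9.32, 9.40 and 8.82 in NT, 9.35, 9.67 and 9.52 in sham, 10.88, 9.91 and 9.54 in MSC, 10.06, 9.96 and 9.70 in MSCEPO, and 9.54, 9.84 and 9.39 in DPSC. MSC and MSCEPO lay above NT, with MSC replicate 1 far above the rest. Gpx1 rose by 0.93 ± 0.28 (SE) in MSC (1.91-fold, adjusted p = 0.0357). Without MSC replicate 1 the difference was 0.55 (adjusted p = 0.103), and without NT replicate 3 it was 0.75 (adjusted p = 0.141). The call held only without MSC replicate 3 among the fits that left out 1 library. In MSCEPO the difference was 0.73 (adjusted p = 0.109).

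Gpx4 (ENSRNOG00000013604), which reduces lipid peroxides within membranes and restrains ferroptosis, read 13.19, 13.17 and 13.00 in NT and 12.84, 12.89 and 12.76 in sham. It read 12.53, 12.41 and 12.49 in MSC, 12.44, 12.50 and 13.39 in MSCEPO, and 12.84, 12.34 and 13.07 in DPSC. MSC lay below sham and sham below NT without overlap, while MSCEPO ran from the MSC range to the highest of all 15 libraries, replicate 3. The difference from NT was -0.65 in MSC (95% interval -1.13 to -0.16, adjusted p = 0.0658) and -0.35 in MSCEPO (adjusted p = 0.342), and neither passed. Without MSCEPO replicate 3 the MSCEPO difference was -0.65 (adjusted p = 0.0166).

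Cat, the peroxisomal catalase, read 9.87, 9.86 and 9.69 in NT, 9.87, 9.59 and 9.89 in sham, 10.19, 10.03 and 10.05 in MSC, 10.22, 10.06 and 9.83 in MSCEPO, and 9.98, 9.99 and 9.90 in DPSC. MSC and DPSC lay above both NT and sham without overlap. The differences from NT were 0.28 in MSC (adjusted p = 0.105), 0.23 in MSCEPO (adjusted p = 0.21) and 0.15 in DPSC (adjusted p = 0.564). Gpx3, the secreted peroxidase, differed from NT by 0.05 to 0.40 with an SE of 0.29, and did not pass. Without NT replicate 3 its differences were 0.03 in sham, -0.20 in MSC, 0.15 in MSCEPO and 0.12 in DPSC.

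The superoxide dismutases did not pass in any comparison. Sod1, the cytosolic copper-zinc enzyme, read 11.86, 11.74 and 11.51 in NT, 11.61, 11.90 and 11.57 in sham, 11.93, 11.64 and 11.64 in MSC, 11.78, 11.69 and 12.21 in MSCEPO, and 11.80, 11.70 and 11.80 in DPSC. All groups overlapped. Its difference from NT in sham was -0.01 (95% interval -0.32 to 0.31). Sod2, the mitochondrial manganese enzyme, read 10.63, 10.66 and 10.34 in NT, 10.28, 10.39 and 10.34 in sham, 11.00, 10.51 and 10.20 in MSC, 10.47, 10.47 and 10.29 in MSCEPO, and 10.33, 10.32 and 10.32 in DPSC. DPSC lay below NT by 0.22 without overlap (adjusted p = 0.532), and the other groups overlapped NT.

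Sod3, the extracellular dismutase, had the widest range of the 36 members, 2.70 log2 units over the 15 libraries. It read 9.47, 9.12 and 7.82 in NT, 8.64, 9.06 and 10.06 in sham, 10.06, 8.96 and 8.59 in MSC, 9.52, 9.59 and 7.40 in MSCEPO, and 10.10, 9.54 and 7.80 in DPSC. Every group held both high and low libraries, and the differences from NT, 0.03 to 0.45, had an SE of 0.72. Without MSC replicate 1 the MSC difference was -0.03 in place of 0.40, and without MSCEPO replicate 3 the MSCEPO difference was 0.75 in place of 0.03. The mesenchymal stromal markers (8 of 8 tested), such as Col1a1 and Dcn, moved with it by library: their level was lowest in NT replicate 3 (-1.03), DPSC replicate 3 (-0.42) and MSCEPO replicate 3 (-0.35), which were the 3 lowest libraries of Sod3, and highest in MSC replicate 1 (1.72) and DPSC replicate 1 (1.59). The part of stromal or vascular tissue in the Sod3 values was not tested.

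Ucp2, a mitochondrial carrier linked to lower superoxide output, was at 11.57 in MSC replicate 1 and between 9.44 and 10.18 in the other 14 libraries. Its MSC difference of 0.84 (adjusted p = 0.113) was 0.30 without that library. In MSCEPO the values of 10.07, 10.08 and 9.95 lay above NT and above sham without overlap, by 0.39 and 0.33, and did not pass.

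**Figure D3:**
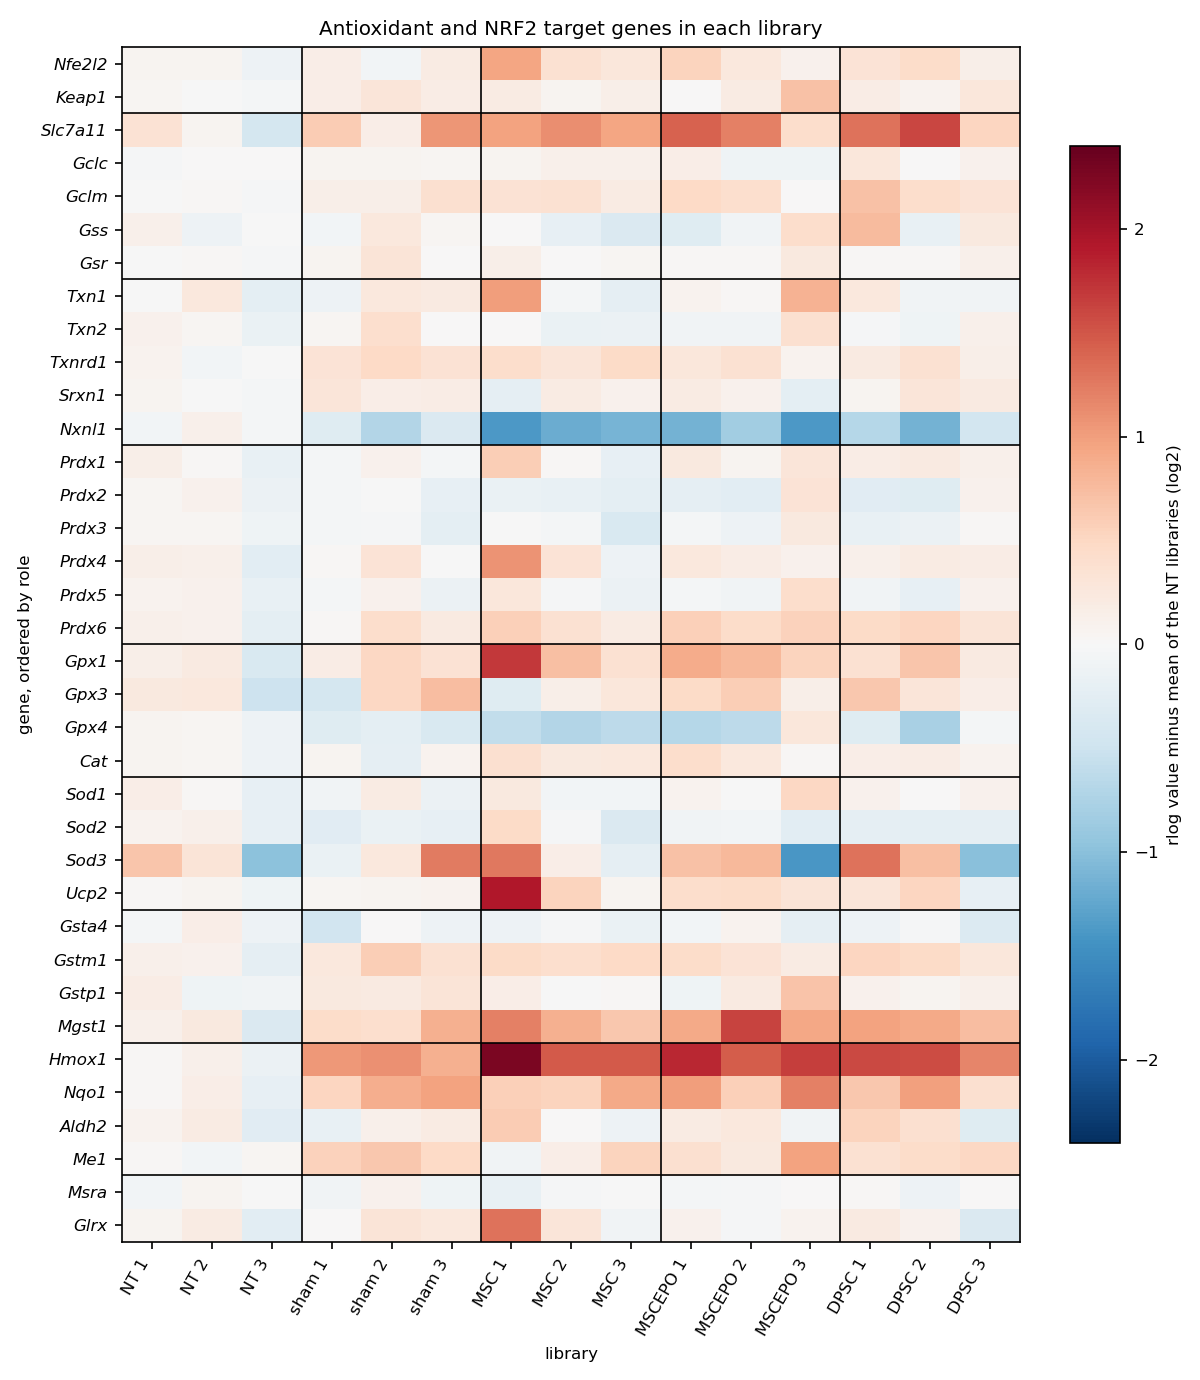
rlog value of each member minus the mean of the 3 NT libraries (log2) in all 15 libraries, with members ordered by role. Hmox1 is high in all 12 NaIO3 libraries; MSC replicate 1 stands out for Gpx1, Ucp2, Glrx and Txn1, and Sod3 varies within every group.

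Of the 4 glutathione transferases, which couple glutathione to electrophiles, 2 passed. Mgst1 (ENSRNOG00000007743), the membrane-bound enzyme, read 8.57, 8.69 and 8.10 in NT, 8.89, 8.87 and 9.31 in sham, 9.67, 9.31 and 9.09 in MSC, 9.36, 10.09 and 9.39 in MSCEPO, and 9.43, 9.37 and 9.19 in DPSC. All 12 NaIO3 libraries were above all NT libraries, and MSCEPO was also wholly above sham. Mgst1 rose by 0.90 ± 0.22 (SE) in MSC (1.87-fold, adjusted p = 0.0156) and by 1.15 in MSCEPO (2.23-fold, adjusted p = 0.00602). Its difference of 0.87 in DPSC had adjusted p = 0.0559, and that of 0.57 in sham had adjusted p = 0.303. The MSCEPO call held with each library left out, and the MSC call was lost without MSC replicate 1 (0.75, adjusted p = 0.0632) or NT replicate 3.

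Gstm1 (ENSRNOG00000029726), a cytosolic mu-class enzyme, read 10.52, 10.51 and 10.20 in NT and 10.65, 10.99 and 10.77 in sham. It read 10.86, 10.81 and 10.88 in MSC, 10.85, 10.73 and 10.60 in MSCEPO, and 10.92, 10.86 and 10.68 in DPSC. The 12 NaIO3 libraries were all above NT. Gstm1 rose by 0.44 ± 0.12 (SE) in MSC (1.36-fold, adjusted p = 0.0207), a call lost without NT replicate 3 or MSC replicate 1 with adjusted p up to 0.093. Its differences of 0.40 in sham, 0.32 in MSCEPO and 0.41 in DPSC (adjusted p = 0.146, 0.0989 and 0.0807) did not pass. Mu-class transferases have close paralogs, and how their reads were shared is uncertain. Gsta4, which clears the lipid peroxidation product 4-hydroxynonenal, differed by -0.19 to -0.06, and Gstp1, the pi-class enzyme, by 0.06 to 0.27, with 0 calls.

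The repair enzymes did not pass. Msra, which reduces methionine sulfoxide in protein, was the steadiest of the 36, with a range of 0.28 over the 15 libraries. Its differences from NT lay between -0.07 and -0.02. Glrx, a glutaredoxin that removes glutathione from protein thiols, differed by 0.50 in MSC, which was 0.10 without MSC replicate 1, and by -0.01 to 0.19 in the other groups.

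**Figure D4:**
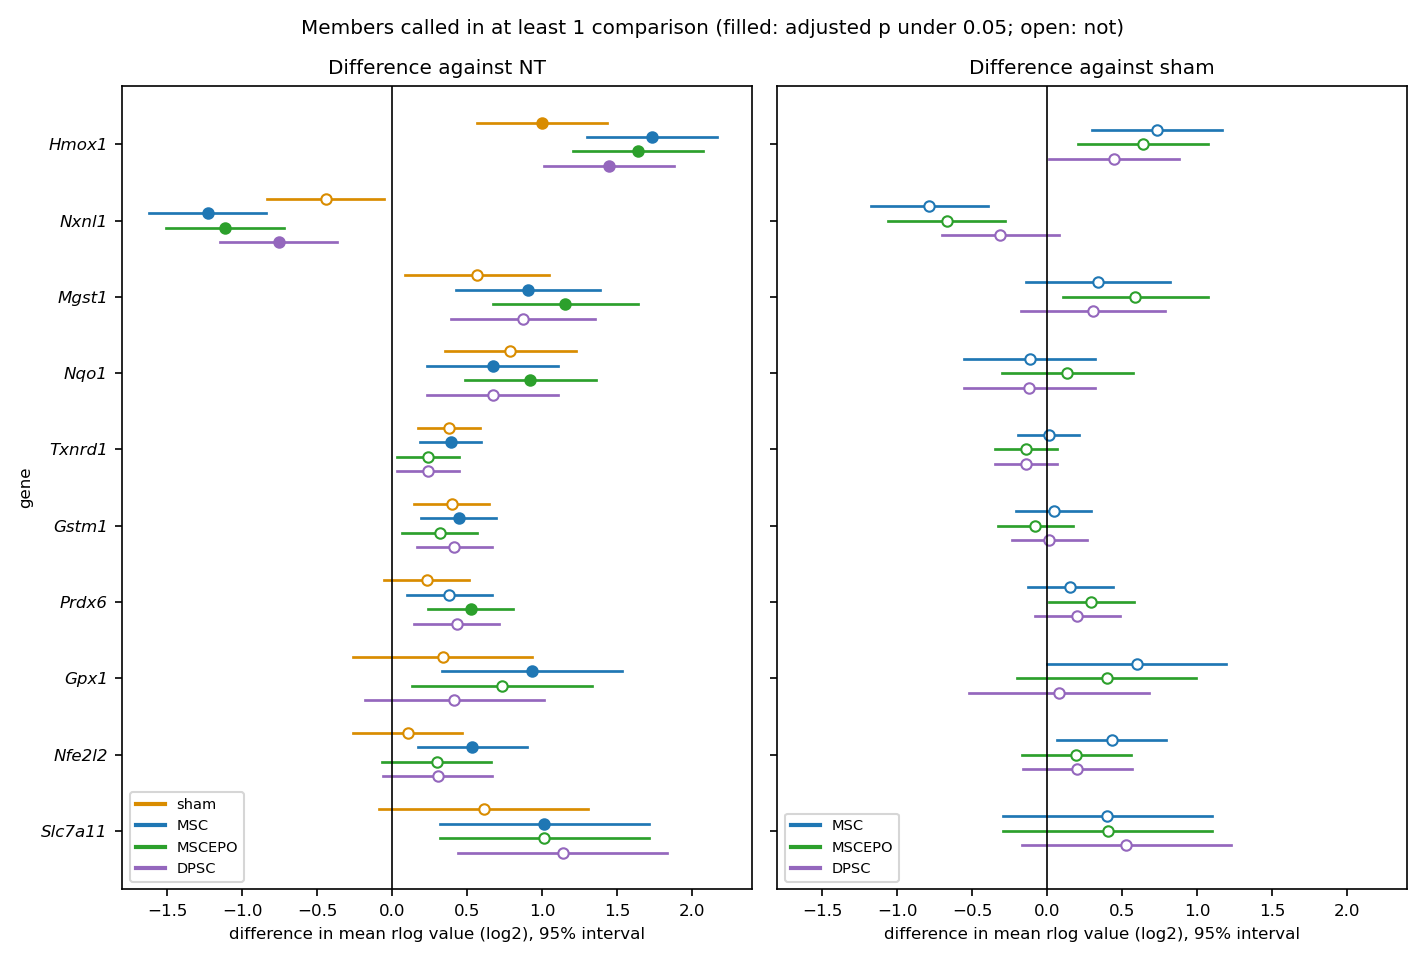
Difference in mean rlog value (log2) with its 95% interval for the 10 members that passed in at least 1 comparison, against NT (left) and against sham (right); filled points had an adjusted p under 0.05. Every point against sham is open. The intervals against sham do not include 0 for Hmox1 in MSC, MSCEPO and DPSC and for Nxnl1 in MSC and MSCEPO. The same holds for Nfe2l2 in MSC and for Mgst1 and Prdx6 in MSCEPO.

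Comparing the cell groups with sham asks what differed between eyes that all received NaIO3. By the test 0 members passed in MSC, MSCEPO or DPSC against sham, and so few genes passed overall (0%, 0.0259% and 0.0195% of the 15424) that the members' count says little. At an unadjusted p under 0.05 there were 5, 5 and 1 members, where 13.3%, 8.31% and 2.37% of all genes were below that level. Members that did not overlap sham numbered 7 in MSC (background 24.5%), 6 in MSCEPO (background 14.3%) and 4 in DPSC (background 9.82%). The 3 comparisons share the sham libraries.

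Hmox1 lay above sham by 0.74 in MSC (95% interval 0.30 to 1.17, adjusted p = 0.143), by 0.64 in MSCEPO (0.21 to 1.08, adjusted p = 0.427) and by 0.45 in DPSC (0.01 to 0.88, adjusted p = 1). Nxnl1 lay below it by a difference of -0.79 in MSC (-1.18 to -0.40, adjusted p = 0.134), -0.67 in MSCEPO (-1.06 to -0.28, adjusted p = 0.295) and -0.31 in DPSC (-0.70 to 0.08). Mgst1 lay above sham by 0.59 in MSCEPO (0.11 to 1.07, adjusted p = 0.549). Without MSC replicate 3 both Hmox1 and Nxnl1 passed in MSC against sham, in a comparison where 698 genes then passed in place of 0.

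Other members were as high in sham as in the groups with cells. Nqo1 differed from sham by -0.12 in MSC (interval -0.55 to 0.32), 0.13 in MSCEPO (-0.30 to 0.57) and -0.12 in DPSC (-0.56 to 0.32). Txnrd1 differed by 0.01, -0.14 and -0.14, with intervals from -0.35 to 0.21. Gstm1 differed by 0.04, -0.08 and 0.01, with intervals from -0.33 to 0.30, and Me1 by -0.36, -0.03 and -0.12. These intervals still allow differences in either direction.

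MSCEPO and MSC eyes differed in the erythropoietin gene of the cells, and in the transduction, GFP marker and sorting that the paper describes. No group is labelled as receiving transduced cells without that gene, so these cannot be told apart. Between MSCEPO and MSC 0 members passed, as did 0% of all genes. At an unadjusted p under 0.05 there were 0 members, where 3.79% of all genes were below that level. The median difference was 0.05, with 21 of 36 members higher in MSCEPO. For the members that passed against NT the difference ran from -0.24 for Nfe2l2 (95% interval -0.60 to 0.13) to 0.25 for Mgst1 (-0.23 to 0.73) and 0.25 for Nqo1 (-0.19 to 0.69). Hmox1 differed by -0.09 (-0.53 to 0.34).

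A group of 8 much-cited NRF2 targets (Hmox1, Nqo1, Gclc, Gclm, Txnrd1, Srxn1, Slc7a11 and Me1) was picked out after the values had been seen, and is described without a test. In sham all 8 had means above NT, with a median difference of 0.47, and 1 passed. In MSC all 8 were above NT (median 0.35, 4 passed), in MSCEPO 7 (median 0.42, 2 passed) and in DPSC 8 (median 0.46, 1 passed). Against sham, 5, 4 and 4 of the 8 were higher in MSC, MSCEPO and DPSC, with medians of 0.02, 0.03 and 0.02.

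Of 60 other genes of oxidant defence, 57 were tested. In sham 3 rose and 0 fell, in MSC 5 rose and 2 fell, in MSCEPO 6 rose and 2 fell, and in DPSC 3 rose and 0 fell, against the backgrounds given above. Mt2A, a metallothionein that binds zinc and scavenges radicals, rose by 1.54 in sham (adjusted p = 0.0164), 1.74 in MSC (adjusted p = 0.0016), 1.97 in MSCEPO (adjusted p = 0.000681) and 1.45 in DPSC (adjusted p = 0.0122). Sesn2, a stress-induced sestrin, rose by 0.75, 0.65, 0.80 and 0.57 in the same order (adjusted p = 0.0164, 0.00558, 0.00194 and 0.0344). Gsta1, an alpha-class transferase, rose by 0.71, 0.66, 0.84 and 0.68 (adjusted p = 0.038, 0.00769, 0.00259 and 0.024), and it too has close paralogs that may share its reads. Gsto1, an omega-class transferase, rose by 0.52 in MSC and 0.63 in MSCEPO (adjusted p = 0.00652 and 0.00275). Txnrd3, a thioredoxin reductase best known from testis, picked for its direction after the values were seen, fell by 0.52 in MSC and by 0.44 in MSCEPO (adjusted p = 0.00977 and 0.0295). Against sham 0 of the 57 passed in any group.

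Macrophage and microglia markers moved with the same groups as Hmox1. Their level over 18 tested genes was above NT by 1.26 in sham (libraries 0.85 to 1.58), 2.57 in MSC (1.86 to 3.53), 1.99 in MSCEPO (1.60 to 2.42) and 1.38 in DPSC (0.90 to 2.15). In the same order 0, 17, 16 and 3 of the 18 rose, and all were detected in NT, where Csf1r was at 9.40 and Aif1 at 7.40. MSC replicate 1, highest for the list at 3.53, was also highest for Hmox1, Gpx1, Ucp2 and Nfe2l2. DPSC replicate 1 had a list level of 0.90, within the sham range, and an Hmox1 value of 8.15, above every sham library. T and NK cell markers (10 of 12 tested) passed for 9 of 10 in MSC and for 0 in the other groups. Their level was 0.14 in sham (libraries 0.10 to 0.19) and 1.90 in MSC (0.86 to 3.28, the highest in replicate 1). It was 0.81 in MSCEPO (0.48 to 1.23) and 0.48 in DPSC (0.13 to 1.00), so both overlapped MSC. All 10 had means above NT in MSCEPO and in DPSC, and 7 in sham. Between MSCEPO and MSC 0 of the 10 passed. Müller glia markers had levels above NT of 0.35 in sham, 0.58 in MSC, 0.53 in MSCEPO and 0.41 in DPSC, and 0, 6, 5 and 2 of 10 rose, while 1 fell in MSC. The part of immune or glial cells in the members' values was not tested.

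**Figure D5:**
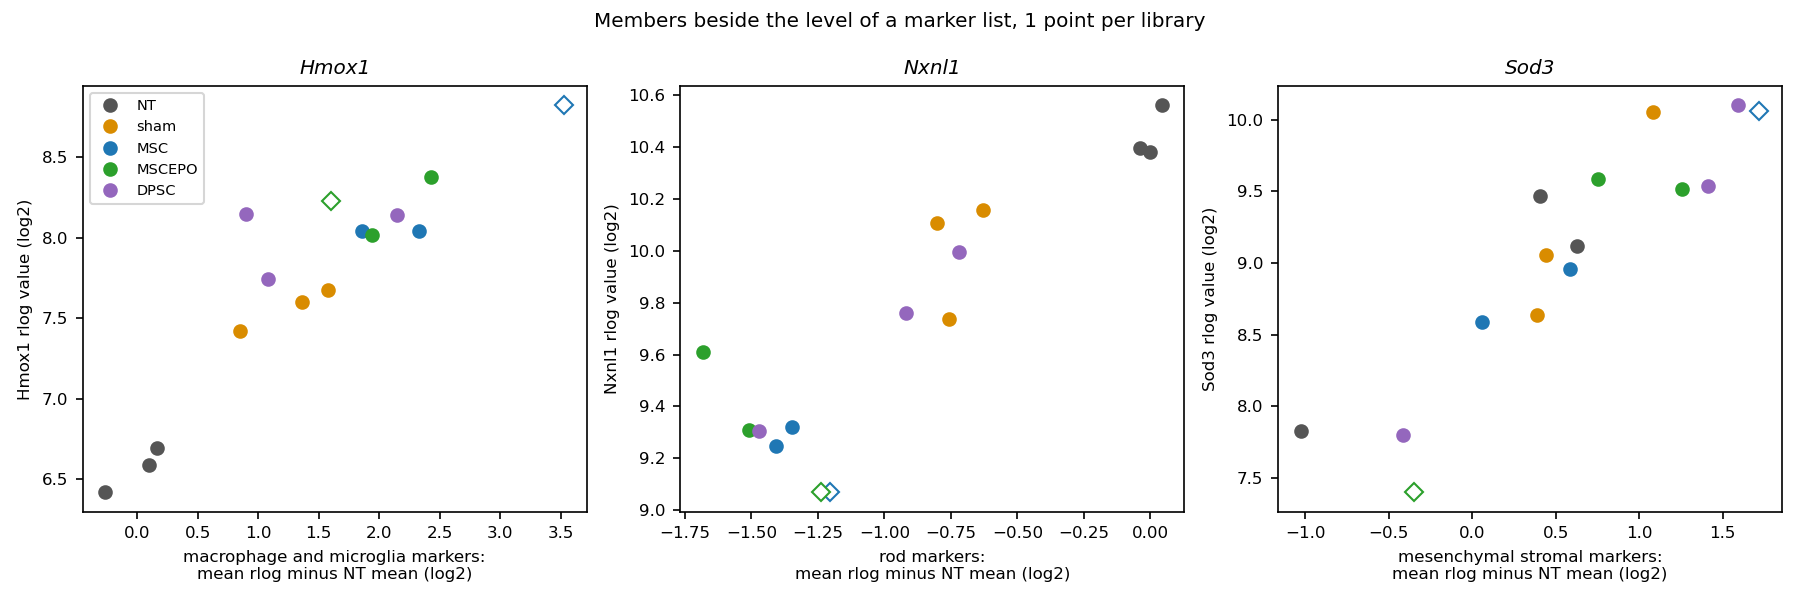
rlog value of Hmox1, Nxnl1 and Sod3 (log2) in each library against the level of the macrophage and microglia, rod and mesenchymal stromal marker lists (mean rlog minus the NT mean, log2); open diamonds mark MSC replicate 1 and MSCEPO replicate 3. MSC replicate 1 is highest in the Hmox1 panel on both axes, the 3 NT libraries are apart at the top right for Nxnl1, and the 3 lowest libraries of Sod3 are the 3 lowest of the stromal list.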

How the data were processed

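RNA of 15 rat retina libraries (5 groups of 3, from the sample labels) had been sequenced paired-end by the authors after a stranded mRNA preparation. Per the labels and the study's methods, reads were quantified with Salmon 1.1.0 on the Ensembl Rnor_6.0 transcriptome and transformed with DESeq2. What was deposited is a log2 scale, the authors' regularized logarithm (rlog), for 20375 genes. No counts are among them, which leaves the depth per library unknown here, and no counting interval is given. A joint table with 15 more per-sample columns was not used.

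Group differences were computed with R 4.3.3 and limma 3.58.1 (empirical Bayes with a variance trend, 15 libraries, 5 group means) on the 15424 genes whose mean rlog reached the log2 of 10. Benjamini-Hochberg adjustment was made within each of 8 comparisons, and a gene was called at an adjusted p under 0.05. The code was tested on simulated data. The members and gene lists were chosen with earlier results of these data known, so no list has a p. Genes given by library were 11 chosen for their roles (Nfe2l2, Keap1, Hmox1, Nqo1, Slc7a11, Gclc, Gpx4, Cat, Sod1, Sod2 and Nxnl1) and the members called; Sod3, Me1, Ucp2, Txn1 and Prdx4 were singled out after their values had been seen. Up to 4 genes of other lists were named by smallest adjusted p, and Txnrd3 for its direction. Alternatives were another call rule, filters, fits, a replicate block, scalings and libraries left out.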

Additional observations from a re-analysis of the deposited data

How the results depend on the processing

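The counts of members that passed depended on the settings. Of 270 differences of called members under the alternatives, 70 no longer passed and 0 changed direction. Several alternatives could not change a direction, because they leave the difference of group means as it was. These were the 2-fold rule, the filters, the fits of fewer groups, the replicate block and the fit without a variance trend. Against NT, 1 member passed in sham, 9 in MSC, 5 in MSCEPO and 2 in DPSC. With a 2-fold difference also required these were 0, 3, 3 and 1. Without the filter on low values sham had 0 and DPSC 1, and after quantile normalization sham had 0 and DPSC 1. All genes called in sham went from 137 to 103 without the filter and to 78 after quantile normalization. In DPSC they went from 439 to 365 and 301. A fit of sham and NT alone gave 4, with all genes called going from 137 to 1333. Without MSC replicate 1 and MSCEPO replicate 3, chosen after seeing the data, the counts were 4 in sham, 9 in MSC, 13 in MSCEPO and 9 in DPSC, while all genes called went from 137 to 755, from 2677 to 3439, from 1795 to 4235 and from 439 to 1858. With 1 library left out the counts were 0 in sham, 2 (without NT replicate 3) to 10 (without MSC replicate 3) in MSC, 3 (without NT replicate 3) to 11 (without MSCEPO replicate 3) in MSCEPO, and 1 to 3 in DPSC, and all genes called at those limits were 1350 and 2721 in MSC and 801 and 2998 in MSCEPO. All genes called with 1 library left out ran from 27 to 46 in sham and from 100 to 462 in DPSC. Against sham the members called were 0 to 2 in MSC and 0 in MSCEPO and DPSC. All genes called there ran from 0 to 698, 0 to 29 and 0 to 6. The cause of these shifts was not tested.

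With the replicate block the counts were 1, 8, 5 and 1 against NT and 0 in the other comparisons. All genes called were then 150, 2726, 1834 and 493 against NT, and at most 1 in the other comparisons. Same-numbered libraries of different groups had correlations of their deviations from -0.44 to 0.65, and other pairs from -0.66 to 0.68. By mean correlation, 5 of 15 libraries were closest to their own number. Replicate 3 of NT, MSC, MSCEPO and DPSC correlated with each other at 0.08 to 0.65, and with sham replicate 3 at -0.44 to -0.06. Whether same-numbered libraries share a batch was not tested. After quantile normalization the median difference of all genes was lowest in MSC against NT, at -0.0997 in place of 0.0016. The 2 scalings turned the sign only of members whose difference was at most 0.19. Without counts, the depth of each library cannot be weighed.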

Other observations

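Genes that produce oxidants rose in MSC and MSCEPO. Of 5 tested subunits of the phagocyte NADPH oxidase, which makes superoxide, 5 rose in MSC, 2 rose in MSCEPO, and 0 passed in sham or DPSC against NT. The backgrounds are those given above. All 5 also had means above NT in sham and in DPSC. Relative to the NT mean, their level by library ran from 0.61 to 1.12 in sham and from 0.58 to 1.87 in DPSC. That level ran from 1.54 to 3.57 in MSC and from 1.17 to 2.16 in MSCEPO, so DPSC overlapped both. Ncf1, an organizer subunit, rose by 2.89 on the log2 scale in MSC (limma adjusted p = 0.00195) and by 2.24 in MSCEPO (adjusted p = 0.00845). Cybb, the catalytic subunit, rose by 3.09 in MSC (adjusted p = 0.0122). Against sham 0 of the 5 passed. The genes are expressed in the macrophages and microglia whose markers moved with the same groups, and the part of those cells was not tested.

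Among 8 genes of ferroptosis and iron handling, Tfrc, the transferrin receptor that imports iron, fell in all 4 groups against NT, by 1.08 in sham (limma adjusted p = 0.00295), 1.23 in MSC (adjusted p = 0.000278), 1.40 in MSCEPO (adjusted p = 8.35e-05) and 1.09 in DPSC (adjusted p = 0.00143). Lpcat3, which loads polyunsaturated fatty acids into phospholipids, rose by 0.69 in MSC (adjusted p = 0.0355). The other 6 passed in none of these comparisons.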
